A study of Mus musculus with 21 samples.

Results

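The effect of Prrx1 editing was compared between fibroblasts of mammary tumours and fibroblasts of embryos, as the difference of the effects in the 2 cell types. The comparison used 12 of the 21 RNA-seq cultures of the series, 3 in each of 4 groups, chosen by cell type and genotype label, and the 24447 genes listed in the count tables of both types. The WT and sgPrrx1 MMTV-CAF groups are cancer-associated fibroblasts from mammary tumours of the MMTV-PyMT mouse, of strain FVB/NJ, in which the mammary promoter MMTV drives a viral oncoprotein. The WT and sgPrrx1 MEF groups are fibroblasts of C57BL/6 embryos taken at embryonic day 10 to 13. The cells of every group were immortalised with the human papillomavirus oncogenes E6 and E7, which the labels write as HPV E6/E, and grew in the same serum-containing medium. The sgPrrx1 cells were edited with CRISPR/Cas9 and a guide RNA against Prrx1, whereas cells with the non-targeting guide sgNS are called WT. Whether the WT MEF cultures carry sgNS is not stated, nor whether the 3 cultures of a group were separate clones or platings, so p-values measure only the spread between these cultures. Cell type, mouse strain and count table coincide in this comparison and cannot be told apart.

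Prrx1 encodes a paired-related homeobox transcription factor that marks mesenchyme during limb and craniofacial development and is expressed by many fibroblasts of connective tissue. Fibroblasts that turn into myofibroblasts assemble a contractile actin apparatus and secrete collagens and matrix glycoproteins, and tumours hold both such contractile cells and others that secrete cytokines, chemokines and complement. The study asked which programme depends on Prrx1. The comparison made here asks whether the same genes moved in the same direction after Prrx1 editing in both backgrounds.

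Levels are given as CPM, read counts scaled to a common library size with the trimmed mean of M values (TMM), in the order of replicates 1 to 3. An effect is the log2 fold change of sgPrrx1 over WT within a type, and the difference is the MMTV-CAF effect minus the MEF effect, so that a negative difference means that a gene was moved further down, or less far up, in MMTV-CAF. Each is given ± its standard error from an edgeR quasi-likelihood model of all 12 cultures, with 3 cultures per group, and p-values are adjusted by the Benjamini-Hochberg method over the 14551 genes that passed the filter on low counts, with a threshold of 0.05. A total of 9896 genes fell below that filter.

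Total counts ran from 72754401 to 88418420 in the MEF cultures and from 105097945 to 134790440 in the MMTV-CAF cultures. Fibroblast markers were abundant in every group: the summed level of the 11 markers ranged from 9673 to 13154 CPM in MEF and from 16218 to 33089 CPM in MMTV-CAF, although Fap was near 0 throughout and Lum exceeded 1 CPM only in WT MMTV-CAF cultures. The 14 epithelial markers summed to 51.03 to 52.9 CPM in WT MMTV-CAF, 0.359 to 0.619 CPM in sgPrrx1 MMTV-CAF and 18.1 to 28.4 CPM in MEF. The keratin gene Krt19 made up most of that except in sgPrrx1 MMTV-CAF, with means of 51.6, 0.177, 12.5 and 22.4 CPM in WT and sgPrrx1 MMTV-CAF and WT and sgPrrx1 MEF, while Epcam had 0 counts in all 12 cultures. The 10 immune markers, with Tyrobp at 0 counts throughout, summed to 6.79 to 7.67 CPM in WT and 0.902 to 1.008 CPM in sgPrrx1 MMTV-CAF, and to 3.47 to 4.39 CPM in WT and 4.68 to 5.42 CPM in sgPrrx1 MEF. The 8 endothelial markers summed to 3.10 to 3.79, 0.737 to 1.02, 4.81 to 5.34 and 1.69 to 2.26 CPM in the same order, and the 7 skeletal muscle markers to at most 1.12 CPM. Xist was at 303 to 439 CPM in MMTV-CAF, where the 4 transcripts of the Y chromosome searched had 0 counts, whereas the MEF cultures held the Y transcripts, so these transcripts also coincide with cell type and cannot be told apart from it. No 2 cultures of a group were as close as counting noise. The chi-square per degree of freedom between them was 21.8 to 36.1 in MMTV-CAF, 45.2 and 48.3 between MEF cultures 1 and 2, and 66.4 to 143 where a MEF culture numbered 3 was involved, so counts are repeated without both of these. In such bulk samples, fewer cells making a transcript and less of it per cell cannot be told apart.

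Prrx1 itself, on chromosome 1 (mm10, chr1:163245119-163315145), was partly reduced in both types. Its level was 612, 618 and 619 CPM in WT MMTV-CAF and 296, 297 and 289.6 CPM in sgPrrx1 MMTV-CAF, which left 47.8% of the WT mean. In MEF it was 195, 168 and 184 CPM in WT and 125, 93.8 and 137 CPM in sgPrrx1 cultures, which left 65.0%. The groups did not overlap in either type, and the MMTV-CAF cultures started from a higher level. The effect was -1.07 ± 0.11 in MMTV-CAF and -0.62 ± 0.11 in MEF, and the difference of -0.45 ± 0.16 passed the threshold (95% interval -0.79 to -0.10, adjusted p = 0.0291). That call was lost without any of 6 of the 12 cultures (WT MMTV-CAF 2 or 3, sgPrrx1 MMTV-CAF 3, WT MEF 2, sgPrrx1 MEF 1 or 3), with differences between -0.45 and -0.33 and adjusted p between 0.0530 and 0.0680. It was also lost without both MEF cultures numbered 3 (-0.34, adjusted p = 0.0723) and with library totals in place of the scaling (-0.32, adjusted p = 0.132). A transcript level does not measure the edited protein.

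Prrx2, the closest relative of Prrx1, moved in opposite directions. It stood at 66.2, 73.9 and 71.4 CPM in WT and 116, 111 and 115 CPM in sgPrrx1 MMTV-CAF, against 106, 108 and 106 CPM in WT and 89.6, 79.9 and 73.6 CPM in sgPrrx1 MEF. The groups did not overlap in either type. The difference was 1.09 ± 0.10 (adjusted p = 2.06e-06), which did not pass the test against a 2-fold difference.

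Across all genes, the effects were only weakly correlated. The difference passed the threshold for 8417 of the 14551 genes (57.8%), of which 4236 (29.1% of all tested) had the lower effect in MMTV-CAF and 4181 (28.7%) the higher. A difference of over 2-fold, tested as such, was found for 2102 genes (14.4%), with 904 (6.21%) lower and 1198 (8.23%) higher in MMTV-CAF. The median absolute difference was 0.56 on the log2 scale, compared with a median absolute effect of 0.50 in MMTV-CAF and 0.33 in MEF. Pearson's r between the effects was 0.112 and Spearman's rho 0.148 over the 14551 genes, which are not independent replicates. With library totals in place of TMM, 3276 of 8227 called differences (39.8%) were the lower ones rather than 50.3%, and the median over all genes shifted by 0.13.

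Shared and opposite changes were both frequent. In both types 2033 genes (14.0%) fell and 1507 (10.4%) rose. Of those, 1163 of the lower and 670 of the higher genes still differed in size between the types. For 647 lower and 735 higher genes the 95% interval of the difference lay within 0.5 of zero on either side, as for 3123 of all tested genes (21.5%). Such an interval bounds the difference on the log2 scale. It does not show a like size where the effects are small, and the median absolute effects were 0.50 and 0.33. In opposite directions, 960 genes (6.6%) fell in MMTV-CAF and rose in MEF, and 1159 (7.97%) rose in MMTV-CAF and fell in MEF. Without both MEF cultures numbered 3, these counts were 2178, 1801, 1274 and 1377. With library totals, 624 genes fell in MMTV-CAF and rose in MEF, 604 of them among the 960.

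**Figure D1:**
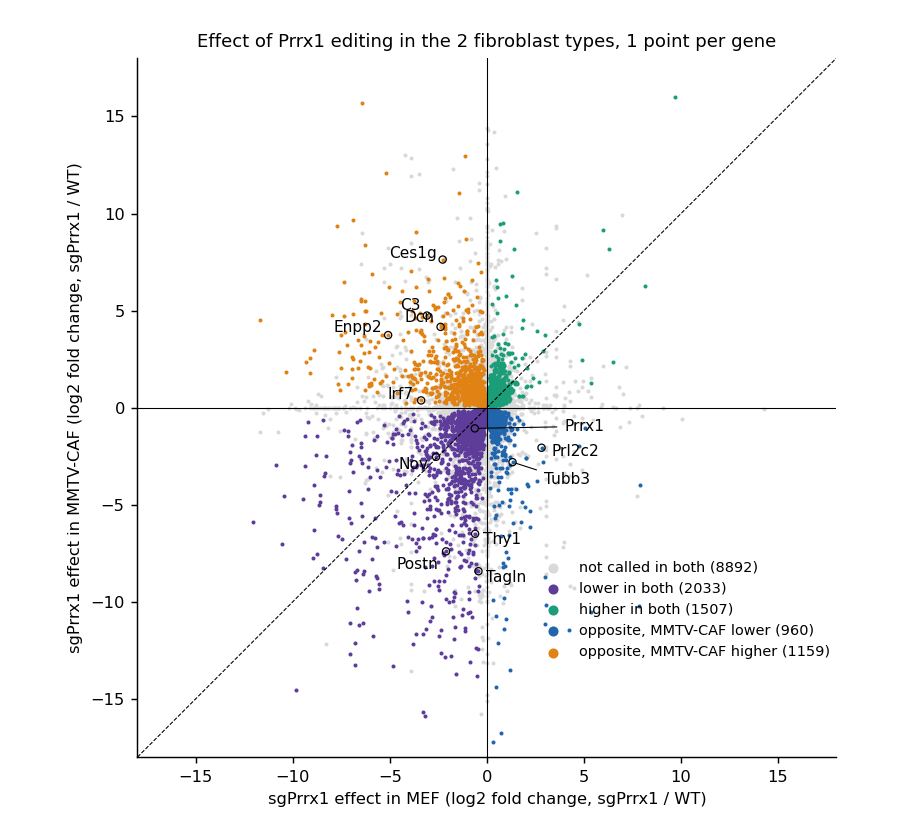
Effect of Prrx1 editing in MEF (horizontal axis) against MMTV-CAF (vertical axis), both as log2 fold change of sgPrrx1 over WT, with 1 point for each of 14551 genes; the dashed line marks equal effects and colours mark genes called in both types. The points spread to both sides of zero on each axis, with 2033 genes lower in both and 1159 higher in MMTV-CAF but lower in MEF, and Nov lies on the line of equal effects while Tagln and Enpp2 lie far from it.

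Genes that changed by over 2-fold in both types, again tested against that size, were fewer. Among genes expressed in both types with at least 10 counts on average in each group, 227 did so. Of these, 149 moved in the same direction, 140 of them down and 9 up. The other 78 moved in opposite directions, and 74 of them rose in MMTV-CAF and fell in MEF while 4 did the reverse.

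The 8 genes with the largest differences among these 74 were Ces1g, Enpp2, C3, Tmem176b, Mme, Cldn1, Tmem176a and Adgrb2. Enpp2 encodes autotaxin, the secreted enzyme that makes lysophosphatidic acid. Its level was 30.7, 32.3 and 32.5 CPM in WT and 423, 425 and 427 CPM in sgPrrx1 MMTV-CAF, but 9.51, 9.09 and 8.84 CPM in WT and 0.206, 0.263 and 0.328 CPM in sgPrrx1 MEF. The difference was 8.82 ± 0.12 (adjusted p = 1.73e-12), and within each type all edited cultures lay on one side of all WT cultures. C3, the central complement component, followed the same course, at 18.1, 17.6 and 19.0 against 498, 491 and 479.8 CPM in MMTV-CAF and 3.20, 3.58 and 3.22 against 0.382, 0.496 and 0.303 CPM in MEF, with a difference of 7.83 ± 0.15 (adjusted p = 1.22e-11). The carboxylesterase gene Ces1g differed by 9.91 ± 0.21, from effects of 7.63 ± 0.16 and -2.28 ± 0.14. The membrane peptidase gene Mme differed by 7.75 ± 0.46 and the adhesion receptor gene Adgrb2 by 7.36 ± 0.38, with no culture above 5.59 CPM for Mme or 7.60 CPM for Adgrb2.

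Tmem176a and Tmem176b, neighbouring genes for related membrane proteins, rose together in MMTV-CAF and fell together in MEF. Tmem176a stood at 6.23, 6.68 and 5.83 CPM in WT and 328, 329 and 319.9 CPM in sgPrrx1 MMTV-CAF, and at 33.9, 30.9 and 32.9 CPM in WT and 8.39, 8.80 and 8.82 CPM in sgPrrx1 MEF (difference 7.61 ± 0.09, adjusted p = 1.13e-12). For Tmem176b the levels were 12.3, 12.1 and 12.6 against 617, 648 and 627 CPM and 169.9, 163 and 133 against 39.2, 33.3 and 31.8 CPM (difference 7.83 ± 0.15, adjusted p = 1.35e-11). The annotated genes overlap on opposite strands (mm10, chr6:48841483-48845364 and chr6:48833811-48845948), the library kit does not keep strand, and how reads in the overlap were assigned is not given in the sources used here, so their values are not independent. Their upstream regions are shown because the pair moved together and the windows overlap: the printed window of Tmem176a and that of Tmem176b have 208 bases in common. The capitals in both mark the same 6 bases, a match to GGAATG (the core of the TEAD site) that reads as its reverse complement in Tmem176a. Of the 3 windows available for starts of Tmem176b, only the printed one holds a match to any of the motifs searched. The annotated gene reaches further upstream, to 48845948, so a start there was not searched. Cldn1, which encodes the tight junction protein claudin-1 and went from 1.27, 1.61 and 1.53 to 50.1, 51.04 and 49.8 CPM in MMTV-CAF and from 1.09, 1.18 and 1.27 to 0.206, 0.292 and 0.0756 CPM in MEF (difference 7.75 ± 0.30), is shown for comparison with its match to TAATTA, a core recognised by many homeodomains, in capitals. The sequences are from RefSeq (GRCm38.p6, the assembly of mm10), 300 bases each, at chr6:48841233-48841532 on the plus strand, chr6:48841325-48841624 on the minus strand and chr16:26371790-26372089 on the minus strand.
Tmem176a: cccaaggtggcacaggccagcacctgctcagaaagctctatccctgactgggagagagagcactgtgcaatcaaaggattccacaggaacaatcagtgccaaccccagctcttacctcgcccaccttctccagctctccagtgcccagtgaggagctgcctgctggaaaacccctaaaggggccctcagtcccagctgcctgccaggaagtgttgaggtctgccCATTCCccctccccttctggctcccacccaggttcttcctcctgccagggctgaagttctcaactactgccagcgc
Tmem176b: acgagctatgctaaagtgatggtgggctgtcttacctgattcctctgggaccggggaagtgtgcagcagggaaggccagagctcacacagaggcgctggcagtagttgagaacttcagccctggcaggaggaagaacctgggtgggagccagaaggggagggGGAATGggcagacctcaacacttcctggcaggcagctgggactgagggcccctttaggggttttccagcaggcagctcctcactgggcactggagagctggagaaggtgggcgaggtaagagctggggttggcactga
Cldn1: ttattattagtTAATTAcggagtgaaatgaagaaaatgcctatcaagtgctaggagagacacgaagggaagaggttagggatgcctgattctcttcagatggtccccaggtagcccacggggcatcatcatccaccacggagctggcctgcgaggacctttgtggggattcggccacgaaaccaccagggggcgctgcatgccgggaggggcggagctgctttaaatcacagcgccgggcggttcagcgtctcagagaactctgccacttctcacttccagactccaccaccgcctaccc

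Searched on both strands, GGAATG was found in 14.7% of the 32851 windows of the table, TAATTA in 5.29% and TGANTCA, the site of AP-1, in 7.81%. Of the 10899 tested genes with a window, 14.7%, 3.36% and 6.58% held them in turn. Among genes lower in both types the shares were 16.9%, 2.42% and 6.54%, and among genes that rose in MMTV-CAF and fell in MEF they were 16.3%, 2.93% and 8.23%. Among genes higher in both types they were 12.7%, 2.31% and 4.7%, and among genes that fell in MMTV-CAF and rose in MEF 12.6%, 2.67% and 8.29%. TAATTA and TGANTCA read the same on either strand, and none of the 3 contains another. A match says only that the letters are in the window.

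The 4 genes with the reverse pattern, over 2-fold down in MMTV-CAF and over 2-fold up in MEF, were Prl2c2, Tubb3, Grb14 and Gpr137b. Tubb3, a beta-tubulin typical of neurons, was at 35.7, 34.8 and 33.3 against 5.08, 5.01 and 4.75 CPM in MMTV-CAF and at 70.3, 71.7 and 60.4 against 202, 171 and 132 CPM in MEF, a difference of -4.13 ± 0.18 (adjusted p = 8.7e-09). Grb14, an adaptor that binds the insulin receptor, differed by -2.88 ± 0.07, and Gpr137b, a membrane protein of lysosomes, by -2.74 ± 0.07. Prl2c2, which encodes the secreted prolactin relative proliferin, differed by -4.88 ± 0.17, but it has near-identical copies between which reads may be split, so its value is uncertain. In all 4 genes the WT and sgPrrx1 cultures did not overlap in either type.

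**Figure D2:**
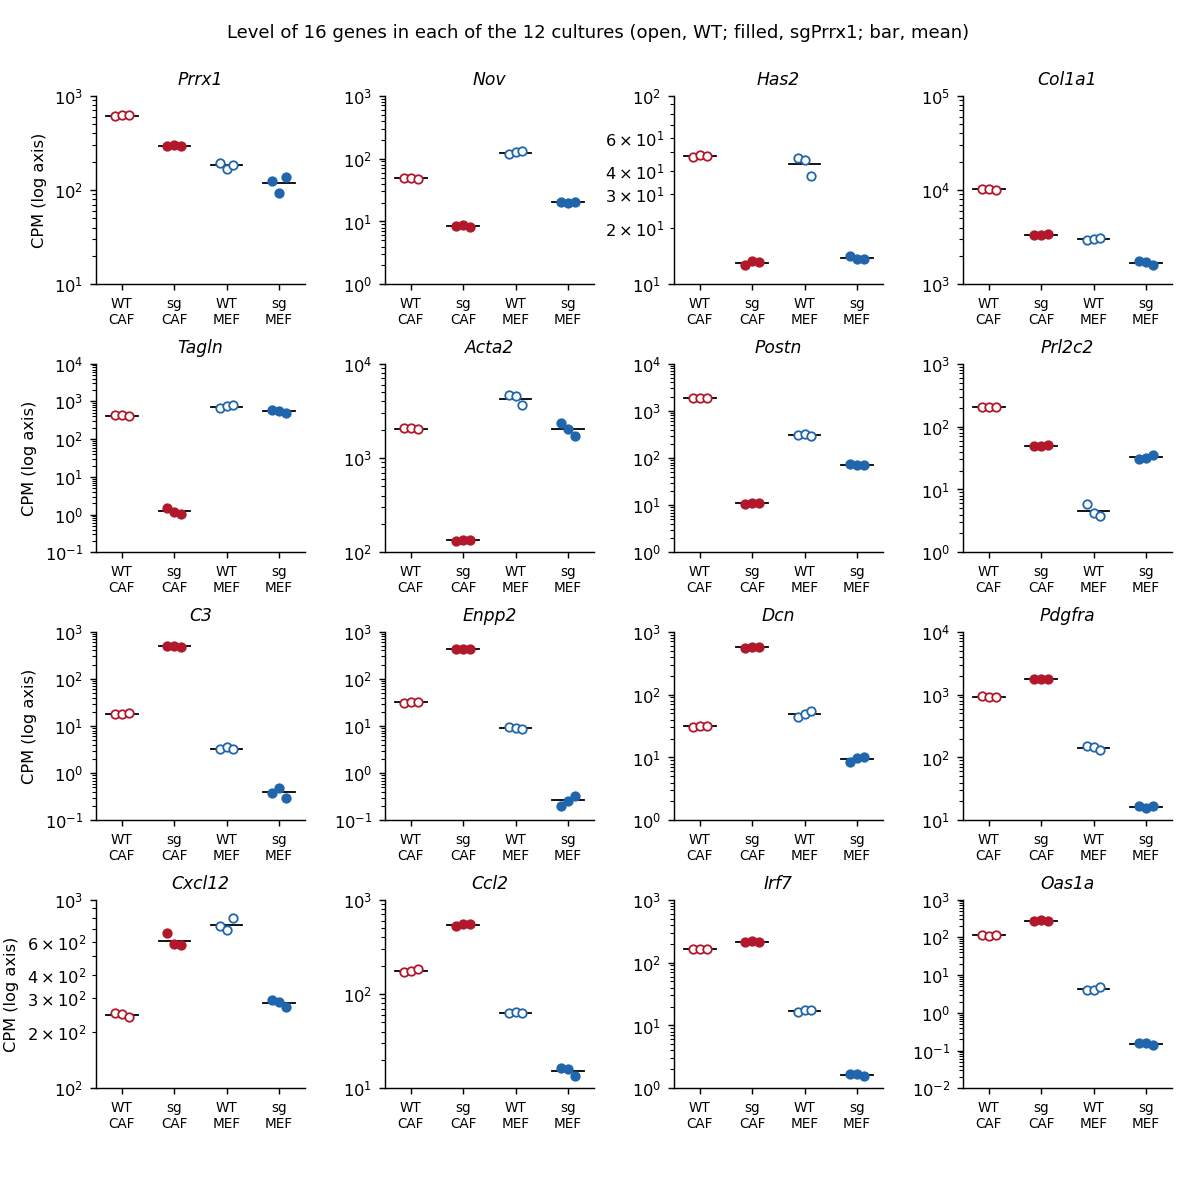
Level of 16 genes in each of the 12 cultures, as CPM on log axes; open points are WT, filled points sgPrrx1, red MMTV-CAF, blue MEF, and bars are group means. Prrx1, Nov, Has2 and Col1a1 fell in both types, Tagln, Acta2 and Postn fell further in MMTV-CAF, and C3, Enpp2, Dcn, Pdgfra, Cxcl12, Ccl2, Irf7 and Oas1a rose in MMTV-CAF while they fell in MEF.

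The genes that fell by over 2-fold to a like extent in both types numbered 17. Nov, listed as NOV and also known as Ccn3, encodes a secreted matricellular protein. It was at 48.4, 49.3 and 48.2 CPM in WT and 8.37, 8.78 and 8.12 CPM in sgPrrx1 MMTV-CAF, and at 117, 127 and 129.9 CPM in WT and 20.7, 19.5 and 20.7 CPM in sgPrrx1 MEF. The effects were -2.53 ± 0.05 and -2.62 ± 0.05, with a 95% interval of the difference from -0.07 to 0.24. Has2, the main hyaluronan synthase of fibroblasts, fell from 47.3, 48.7 and 48.2 to 12.7, 13.3 and 13.1 CPM and from 46.5, 45.9 and 37.6 to 14.2, 13.6 and 13.7 CPM, with a difference of -0.24 ± 0.10 (95% interval -0.46 to -0.01, adjusted p = 0.0654). For both genes every edited culture lay below every WT culture in each type. The difference for Has2 was called without any of the WT MEF cultures (-0.29, -0.28 and -0.14 without 1, 2 and 3, adjusted p = 0.0278, 0.0442 and 0.0424).

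For 6 more of these 17 genes the effects lay between -1.34 and -2.27. Fat4, an atypical cadherin, fell by 2.02 in MMTV-CAF and by 2.27 in MEF, Dock4, an activator of Rac, by 1.86 and 1.99, and Trp53inp2, a regulator of autophagy, by 1.75 and 1.95. Tmem119, a membrane protein of bone-forming cells and microglia, fell by 1.72 and 1.92, Igfbp7, a secreted binding protein of insulin-like growth factors, by 1.49 and 1.34, and Clec2d, a lectin-like ligand of natural killer receptors, fell with effects of -1.47 ± 0.12 and -1.50 ± 0.14. A difference was still called for Fat4 (0.25 ± 0.08, adjusted p = 0.0237) and Tmem119 (0.21 ± 0.07, adjusted p = 0.019), small beside the effects themselves. Both calls were lost without single cultures: for Fat4 without WT MEF 1 or 2, sgPrrx1 MMTV-CAF 2 or 3 or WT MMTV-CAF 2 (0.20 to 0.24), and for Tmem119 without sgPrrx1 MEF 2, sgPrrx1 MMTV-CAF 2 or 3 or WT MMTV-CAF 1 (0.19). Trp53inp2, not called, was called without sgPrrx1 MEF 3 (0.26, adjusted p = 0.0137), without both MEF cultures numbered 3 (0.22), and with DESeq2 (0.22), RLE scaling (0.22) and library totals (0.33). Dock4 was called with library totals (0.26, adjusted p = 0.0456). None of the 9 genes that rose by over 2-fold in both types had an interval of the difference within 0.5 of zero.

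Contractile and smooth muscle genes, the best known markers of the myofibroblast state, fell further in MMTV-CAF. Of 26 tested members, 21 had a lower effect in MMTV-CAF and 1 a higher one, compared with 29.1% and 28.7% of all genes, and 13 against 1 differed by over 2-fold (6.21% and 8.23% of all). The median effect was -1.72 in MMTV-CAF and -0.27 in MEF, and the median difference was -1.33 beside 0.01 over all genes. Direction was nonetheless mostly shared, since 15 members fell in both types (14.0% of all genes). Tagln, the actin-binding protein transgelin, was at 427, 423 and 417 CPM in WT and 1.49, 1.18 and 1.03 CPM in sgPrrx1 MMTV-CAF, and at 674, 734 and 785 CPM in WT and 576, 555 and 495 CPM in sgPrrx1 MEF. The difference was -7.99 ± 0.16 (adjusted p = 2.1e-11), with the groups apart in both types but close to each other in MEF.

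Acta2, smooth muscle alpha-actin, fell from 2073, 2066 and 2025 to 132, 134 and 137 CPM in MMTV-CAF and from 4693, 4513 and 3612 to 2348, 2051 and 1714 CPM in MEF. Its difference was -2.87 ± 0.16 (adjusted p = 5.63e-08). Gamma smooth muscle actin (Actg2) differed by -4.22 ± 0.20, the myosin light chain gene Myl9 by -2.19 ± 0.19 and calponin (Cnn1) by -1.27 ± 0.11, each lower in sgPrrx1 than in WT cultures of both types. Mylk, the kinase that phosphorylates myosin light chains, was the exception of the list. It went from 42.1, 40.7 and 39.7 to 32.9, 32.3 and 32.0 CPM in MMTV-CAF and from 18.3, 15.2 and 14.6 to 1.23, 1.14 and 1.10 CPM in MEF, a difference of 3.46 ± 0.12 (adjusted p = 1.11e-09).

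**Figure D3:**
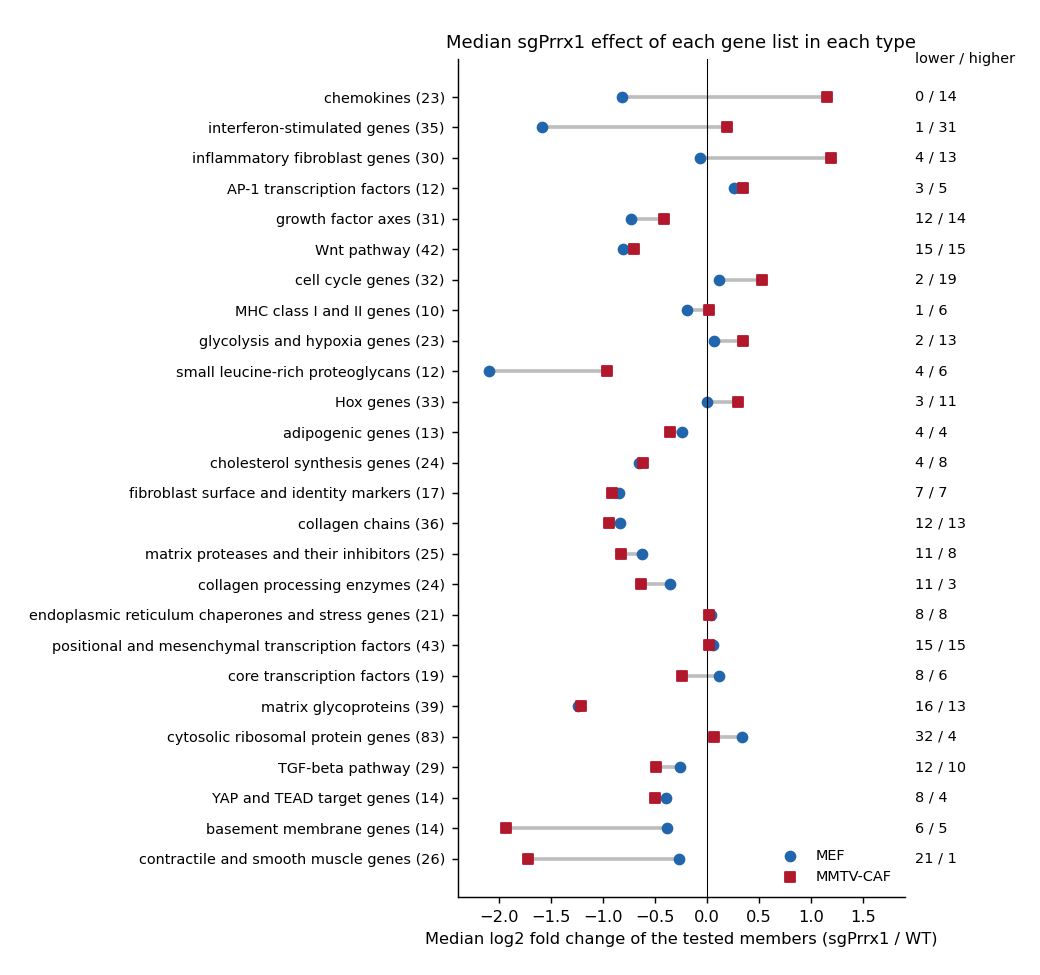
Median log2 fold change of sgPrrx1 over WT in MEF (blue circles) and MMTV-CAF (red squares) for the tested members of 26 gene lists, with the number tested in brackets and, at the right, how many members had a lower or higher effect in MMTV-CAF past the threshold. Contractile genes lie to the left in MMTV-CAF relative to MEF (21 lower, 1 higher), chemokines and interferon-stimulated genes lie to the right (0 and 14, 1 and 31), and cholesterol synthesis genes and matrix glycoproteins have nearly equal medians.

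Collagen chains did not differ in a common direction. Of 36 tested, 12 had a lower and 13 a higher effect in MMTV-CAF, counts near the background, and 16 fell in both types with none rising in both (14.0% and 10.4% of all genes). Col1a1, a chain of fibrillar type I collagen, was at 10177, 10334 and 10106 CPM in WT and 3347, 3343 and 3384 CPM in sgPrrx1 MMTV-CAF, and at 2983, 3048 and 3119 CPM in WT and 1751, 1739 and 1604 CPM in sgPrrx1 MEF. The fall was steeper in MMTV-CAF by -0.76 ± 0.07 (adjusted p = 1.95e-06). The fibrillar chains Col3a1, Col5a1 and Col1a2 fell in both types, with differences of -0.63 ± 0.10 for Col3a1, -0.46 ± 0.09 for Col5a1 and -0.25 ± 0.06 for Col1a2. The last was not called with library totals (adjusted p = 0.0640). Col5a3, also of type V collagen and chosen after its values were seen, had effects of 1.88 ± 0.23 in MMTV-CAF and -0.41 ± 0.28 in MEF (difference 2.28 ± 0.36, adjusted p = 0.000219). How far the Col5a3 call depends on the processing was not tested. Col6a1, a chain of the microfibrillar type VI collagen, fell by 0.18 in MMTV-CAF and by 1.20 in MEF (difference 1.02 ± 0.09).

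Some sheet-forming collagens and basement membrane genes moved in opposite directions. Col4a1, the type IV chain of basement membranes, fell from 1094, 1078 and 1026 to 465, 536 and 472 CPM in MMTV-CAF and rose from 1089, 1107 and 1207 to 1696, 1750.2 and 1752 CPM in MEF, a difference of -1.73 ± 0.09 (adjusted p = 2.29e-08). Nidogen-1 (Nid1), which links laminin to type IV collagen, did likewise, at 1012, 1009.8 and 1018 against 205, 214 and 212 CPM and 1168, 1187 and 1041 against 2188, 1974 and 1804 CPM (difference -3.08 ± 0.10). Col18a1, whose product carries endostatin, went the other way, with effects of 1.10 ± 0.06 in MMTV-CAF and -1.56 ± 0.08 in MEF. Of the laminin chains, Lamb2 fell in both types and further in MMTV-CAF (-2.39 ± 0.09), whereas Lamb1 rose by 0.26 in MMTV-CAF and fell by 0.17 in MEF, where its groups overlapped. In all, 6 of 14 basement membrane genes had a lower and 5 a higher effect in MMTV-CAF, beside 29.1% and 28.7% of all genes.

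Matrix glycoproteins mostly fell in both types. Of 39 tested, 28 fell in both types and none rose in both, beside 14.0% and 10.4% of all genes, and the medians were -1.21 in MMTV-CAF and -1.24 in MEF. Individual members nevertheless differed widely, 16 being lower and 13 higher in MMTV-CAF, beside 29.1% and 28.7% of all genes. Periostin (Postn), a matricellular protein of wounds and tumour stroma, went from 1887, 1839.9 and 1893 to 10.7, 11.4 and 11.1 CPM in MMTV-CAF and from 309.9, 324 and 294 to 73.9, 71.0 and 71.6 CPM in MEF, a difference of -5.30 ± 0.07 (adjusted p = 1.44e-12). Fibronectin (Fn1), tenascin C (Tnc) and fibulin-2 (Fbln2) also fell in both and further in MMTV-CAF, by -0.46 ± 0.10, -1.40 ± 0.12 and -1.69 ± 0.16. Thrombospondin-1 (Thbs1), an activator of latent TGF-beta, fell by 1.14 and 1.37, with no difference called (95% interval -0.12 to 0.59). It was called without WT MEF 3 (0.38, adjusted p = 0.0089), without both MEF cultures numbered 3 (0.29) and with library totals (0.37, adjusted p = 0.0279). Of the members called in both types, 4 rose in MMTV-CAF and fell in MEF and 1 did the reverse (7.97% and 6.6% of all genes). The first include Tgfbi, which binds integrins and collagen and stood at 79.4, 80.1 and 78.6 against 191, 197 and 191 CPM in MMTV-CAF but at 12.7, 11.4 and 10.99 against 0.191, 0.438 and 0.151 CPM in MEF (difference 6.79 ± 0.26, adjusted p = 2.42e-09).

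Small leucine-rich proteoglycans, which coat collagen fibrils, split by member. Decorin (Dcn) rose from 30.8, 31.8 and 32.2 to 559, 573 and 565 CPM in MMTV-CAF and fell from 44.6, 48.5 and 54.4 to 8.46, 9.65 and 10.2 CPM in MEF, a difference of 6.55 ± 0.12 (adjusted p = 8.86e-12). Osteoglycin (Ogn) showed the same opposition, with effects of 1.55 ± 0.08 and -3.79 ± 0.09. Biglycan (Bgn), decorin's closest relative, fell in both, by 1.49 and 1.08. Over the list, 4 of 12 members had a lower and 6 a higher effect in MMTV-CAF, beside 29.1% and 28.7% of all genes. The sign of the list's median difference (0.13) turned without the filter on low counts (-0.34) and without 1 of several MEF cultures (down to -0.42 without sgPrrx1 MEF 3).

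Enzymes that process collagen often fell in both types. Of 24 processing enzymes, 13 fell in both types, and 11 had the lower and 3 the higher effect in MMTV-CAF. Over all genes the shares were 14.0%, 29.1% and 28.7%. Lysyl oxidase (Lox), which crosslinks collagen, fell from 2914, 2932 and 2962 to 1217, 1200.4 and 1192 CPM and from 759, 745 and 542 to 463, 440.3 and 392 CPM (difference -0.63 ± 0.15). Tll1, a protease that trims procollagen, was at 9.53, 10.1 and 10.3 CPM in WT MMTV-CAF and at most 0.0213 CPM after editing, while it went from 68.1, 57.7 and 46.4 to 10.6, 10.8 and 10.2 CPM in MEF. Pcolce2, an enhancer of that trimming, fell in MMTV-CAF, from 12.9, 12.1 and 11.8 to 0.367, 0.532 and 0.258 CPM, whereas its MEF groups overlapped at 44.7, 37.7 and 33.2 and 48.8, 47.7 and 43.98 CPM (difference -5.25 ± 0.24, adjusted p = 1.08e-08).

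Among matrix proteases and inhibitors, 11 of 25 had a lower and 8 a higher effect in MMTV-CAF, beside 29.1% and 28.7% of all genes. In both types 13 of the 25 fell, beside 14.0% of all genes. Another 3 rose in MMTV-CAF and fell in MEF and 1 did the reverse (7.97% and 6.6% of all genes). Mmp2, a gelatinase, rose from 191, 194 and 186 to 836, 820.5 and 813 CPM in MMTV-CAF, and its MEF groups overlapped at 331, 358 and 379.8 and 374, 374 and 332 CPM (difference 2.10 ± 0.08, adjusted p = 3.57e-09). Timp1, an inhibitor of metalloproteinases, fell by 0.81 in MMTV-CAF and rose by 0.53 in MEF (difference -1.34 ± 0.16). The membrane-bound Mmp16 went from 6.70, 6.98 and 7.15 CPM to at most 0.0344 CPM in MMTV-CAF, whereas the MEF groups overlapped at 31.5, 33.7 and 37.5 and 28.4, 31.8 and 32.5 CPM.

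TGF-beta is the growth factor best known for inducing myofibroblasts. Of 29 tested pathway genes, 9 fell in both types, 5 fell in MMTV-CAF and rose in MEF, and 12 had a lower and 10 a higher effect in MMTV-CAF. The shares of all genes were 14.0%, 6.6%, 29.1% and 28.7% in that order. Among the ligands, Tgfb1 fell by 0.58 in MMTV-CAF and by 0.38 in MEF with no difference called (95% interval -0.48 to 0.07, but -0.32 with adjusted p = 0.00783 without WT MEF 3), Tgfb3 fell further in MMTV-CAF (-0.62 ± 0.07), and Tgfb2 fell in MEF with a difference of 1.12 ± 0.11. The activin subunit gene Inhbb fell in MMTV-CAF from 34.2, 35.7 and 34.2 to 9.87, 10.4 and 10.5 CPM and rose in MEF from 16.3, 14.8 and 13.6 to 24.7, 21.2 and 17.2 CPM, a difference of -2.25 ± 0.16 (adjusted p = 3.61e-07), while Inhba fell in both and further in MMTV-CAF (-1.74 ± 0.19). Of the receptors, Tgfbr1 differed by 1.28 ± 0.18 and Acvr2b by 2.20 ± 0.17, both with the higher effect in MMTV-CAF. Tgfbr2 varied so much within groups (207, 110.0 and 203 CPM in WT MMTV-CAF) that its difference spanned -0.52 to 1.07. Smad3, a transducer of the signal, differed by 0.32 ± 0.08.

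The receptors for platelet-derived growth factor moved apart. Pdgfra, a surface marker of fibroblasts, rose from 933, 904 and 910.5 to 1761, 1763 and 1770.1 CPM in MMTV-CAF and fell from 152, 147 and 129.8 to 16.8, 15.7 and 16.6 CPM in MEF, a difference of 4.07 ± 0.08 (adjusted p = 2.2e-11). Pdgfrb, typical of pericytes and myofibroblasts, fell in both types and further in MMTV-CAF (-1.25 ± 0.11, adjusted p = 2.12e-06). The groups overlapped for neither receptor. Thy1, another surface marker, fell from 53.1, 58.1 and 56.5 to 0.572, 0.667 and 0.610 CPM in MMTV-CAF and from 105, 109 and 98.5 to 72.3, 68.5 and 64.5 CPM in MEF (difference -5.89 ± 0.10), and the proteoglycan gene Cspg4 likewise fell further in MMTV-CAF (-2.81 ± 0.12). Vim, the intermediate filament vimentin, fell by 0.47 in MMTV-CAF and rose by 0.33 in MEF. S100a4, also called FSP1, fell by 0.54 and 0.61, with a 95% interval of the difference of -0.23 to 0.36.

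Genes of the insulin-like growth factor axis differed widely. Igfbp3, a binding protein that limits access to the receptor, was at 83.9, 90.0 and 81.7 CPM in WT MMTV-CAF and at 0, 0 and 0.0258 CPM after editing, while the MEF levels were 4.74, 4.42 and 4.22 CPM in WT and 5.32, 5.28 and 5.85 CPM in sgPrrx1 cultures. The difference was called (adjusted p = 4.2e-11), but a fold against so few counts is not given. Igfbp4 rose from 32.2, 33.3 and 32.4 to 653, 654 and 653 CPM in MMTV-CAF, and its MEF groups overlapped (difference 4.39 ± 0.08, adjusted p = 6.62e-12). Igf1 itself fell in both types, by 3.19 in MMTV-CAF and by 5.66 in MEF (difference 2.48 ± 0.44, adjusted p = 0.000547). Hgf, the ligand of the receptor Met, rose by 1.53 in MMTV-CAF and had an effect of -0.24 ± 0.15 in MEF, where it was under 1 CPM (difference 1.78 ± 0.18, adjusted p = 5.93e-06). Of 31 tested members of these axes, 12 had a lower and 14 a higher effect in MMTV-CAF, and 11 fell in both types. Over all genes the shares were 29.1%, 28.7% and 14.0%.

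Wnt pathway genes fell in both types in 18 of 42 cases, beside 14.0% of all genes. A lower effect in MMTV-CAF was called for 15 and a higher one for 15 (29.1% and 28.7% of all genes). Wnt5a, a ligand of beta-catenin-independent signalling, went from 37.2, 38.03 and 35.8 to 0.632, 0.489 and 0.928 CPM in MMTV-CAF and from 48.8, 60.2 and 46.2 to 27.9, 19.8 and 24.5 CPM in MEF (difference -4.67 ± 0.27, adjusted p = 6.52e-08). The receptor gene Fzd4 also fell further in MMTV-CAF (-5.11 ± 0.15). The secreted antagonist gene Sfrp2 rose from 499, 518 and 510.2 to 2592, 2558 and 2538 CPM in MMTV-CAF and fell from 18.3, 15.4 and 17.2 to 10.0, 11.2 and 10.5 CPM in MEF (difference 3.01 ± 0.09).

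Chemokines, which recruit leukocytes, had higher effects in MMTV-CAF. Of 23 tested, 14 had a higher and none a lower effect in MMTV-CAF (28.7% and 29.1% of all genes), 10 by over 2-fold (8.23%), and 8 rose in MMTV-CAF and fell in MEF (7.97% of all genes). The median effect was 1.15 in MMTV-CAF and -0.81 in MEF. Many chemokines passed the filter through a single group, with 9 of the 23 at 0 counts in at least 1 group. The 10 members expressed at 1 CPM or more in both types were therefore also examined. All 10 had the higher effect in MMTV-CAF, beside 3477 of the 11330 genes expressed in both. The median difference of the 10 was 2.51, beside -0.04 for those 11330 genes. Ccl2, which attracts monocytes, was at 173, 177 and 182 CPM in WT and 520.5, 559 and 549 CPM in sgPrrx1 MMTV-CAF, and at 63.5, 64.4 and 62.8 CPM in WT and 16.3, 15.9 and 13.7 CPM in sgPrrx1 MEF (difference 3.67 ± 0.09, adjusted p = 7.42e-11). Cxcl12, the ligand of Cxcr4, rose from 251, 249 and 238 to 662, 579 and 572 CPM in MMTV-CAF and fell from 727, 691 and 797 to 294, 285 and 268 CPM in MEF (difference 2.68 ± 0.10, adjusted p = 1.99e-09). For both genes the groups were apart in each type. Ccl5 and the neutrophil attractant gene Cxcl1 followed, with differences of 2.40 ± 0.19 and 5.71 ± 0.17. Cxcl10, an interferon-induced chemokine, rose from 39.5, 41.3 and 40.8 to 549, 559 and 554 CPM in MMTV-CAF, while its MEF groups overlapped at 105, 88.3 and 73.8 and 79.4, 74.6 and 67.7 CPM. The summed immune markers given above were lower in sgPrrx1 than in WT MMTV-CAF and higher in sgPrrx1 than in WT MEF. At least 8 of those 10 markers were under 1 CPM in every group. The part of immune cells in the chemokine levels was not tested.

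Genes of inflammatory fibroblasts leaned the same way as chemokines. Of 30 tested, 13 had a higher and 4 a lower effect in MMTV-CAF (28.7% and 29.1% of all genes), 11 and 2 by over 2-fold (8.23% and 6.21%). The median difference was 1.36, but 9 of the 30 had 0 counts in at least 1 group. Over the 19 members expressed in both types, 10 had a higher and 2 a lower effect, with a median difference of 0.65. Of all 11330 genes expressed in both, 3477 had the higher and 3796 the lower effect. C3, described above, was among them. Lif, a cytokine of the interleukin-6 family, rose from 1.95, 2.60 and 2.52 to 15.9, 7.61 and 15.8 CPM in MMTV-CAF, beside 4.28, 4.64 and 4.12 and 3.29, 3.74 and 3.39 CPM in MEF (difference 2.80 ± 0.34, adjusted p = 3.41e-05). Csf1, the growth factor of macrophages, fell by 0.68 in MMTV-CAF and by 0.38 in MEF without a called difference (95% interval -0.62 to 0.02), although it was called without sgPrrx1 MEF 1 (-0.43, adjusted p = 0.00115).

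Interferon-stimulated genes had a called difference in 91.4% of members, the largest share among the 26 lists. Of 35 tested, 31 had the higher effect in MMTV-CAF and 1 the lower, beside 28.7% and 29.1% of all genes, and 24 did so by over 2-fold (8.23% of all). The median effect was 0.19 in MMTV-CAF and -1.59 in MEF, and 14 members rose in MMTV-CAF and fell in MEF while 10 fell in both (7.97% and 14.0% of all genes). Over the 32 members expressed in both types, 28 had the higher effect in MMTV-CAF, beside 3477 of the 11330 genes expressed in both. Their median difference was 1.79. Irf7, a transcription factor that amplifies interferon production, was at 165, 167 and 166 CPM in WT and 214, 218 and 214 CPM in sgPrrx1 MMTV-CAF, and at 16.5, 17.4 and 17.8 CPM in WT and 1.69, 1.69 and 1.56 CPM in sgPrrx1 MEF. The difference was 3.76 ± 0.06 (adjusted p = 6.62e-12), with an effect of 0.37 ± 0.04 in MMTV-CAF and -3.39 ± 0.05 in MEF. The antiviral synthetase gene Oas1a had effects of 1.31 ± 0.06 and -4.83 ± 0.11, although near-identical copies make its counts uncertain.

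Isg15, a ubiquitin-like protein induced by interferon, fell in both types, by 0.57 and 0.36, with a 95% interval of -0.41 to 0.00 (called without WT MEF 3, at -0.30 with adjusted p = 0.000458). The RNA sensor gene Ifih1 was the member with the lower effect in MMTV-CAF, falling from 57.1, 54.0 and 55.9 to 26.2, 27.8 and 26.3 CPM, beside overlapping MEF groups (difference -1.07 ± 0.11, adjusted p = 7.44e-06). Of 10 genes of antigen presentation by MHC molecules, 6 had the higher effect in MMTV-CAF and 1 the lower (28.7% and 29.1% of all genes). The MHC class I light chain gene B2m rose by 0.33 in MMTV-CAF, with an effect of -0.09 ± 0.07 in MEF (difference 0.42 ± 0.10, adjusted p = 0.00479).

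**Figure D4:**
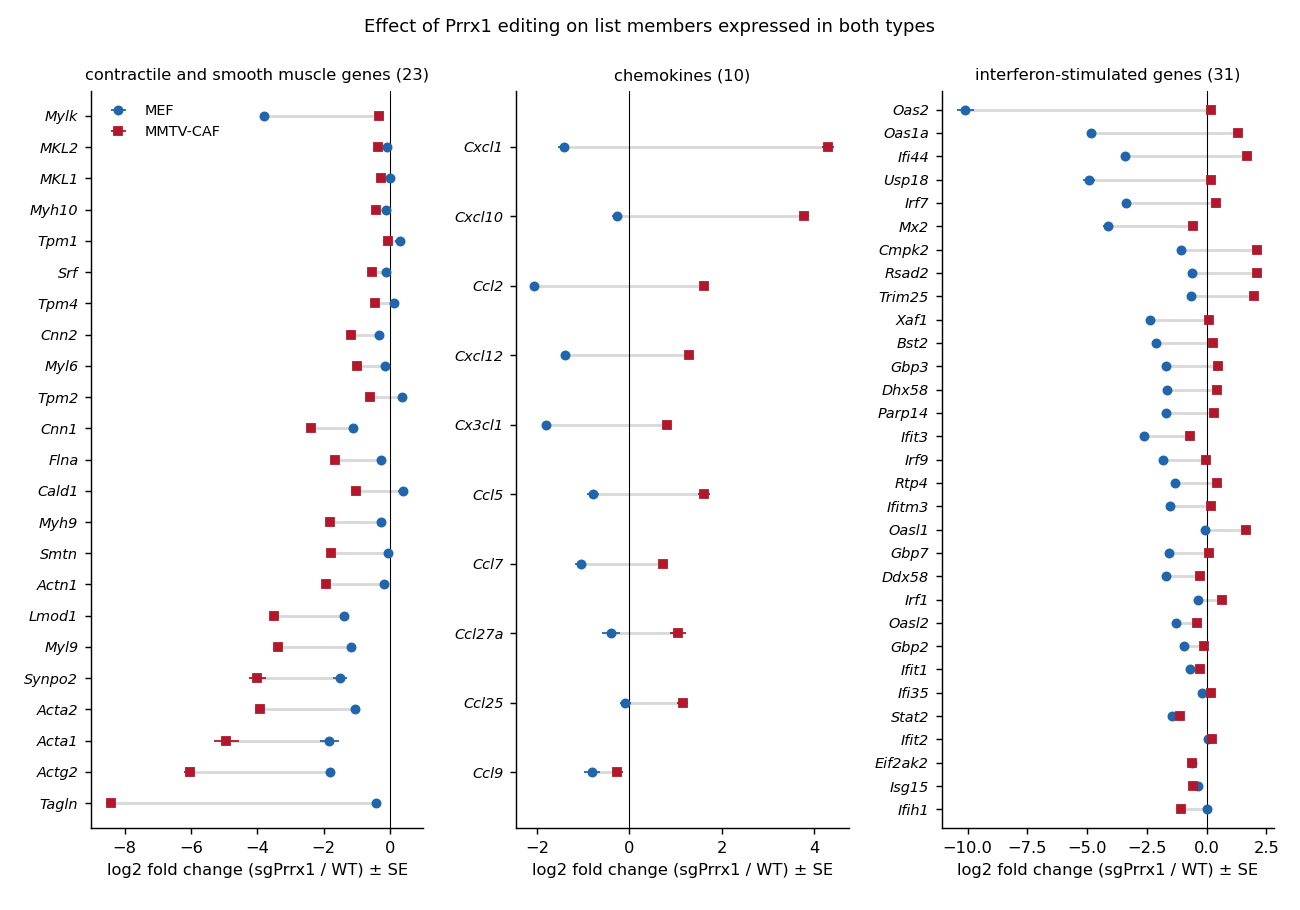
Effect of Prrx1 editing on the members of 3 lists that were expressed in both types, without 1 interferon-stimulated gene that is not drawn, as log2 fold change of sgPrrx1 over WT ± standard error, in MEF (blue circles) and MMTV-CAF (red squares). Of the contractile genes 20 of 23 lie lower in MMTV-CAF past the threshold and Mylk lies higher, all 10 chemokines lie higher in MMTV-CAF, and so do most interferon-stimulated genes. Of all 11330 genes expressed in both types, 3796 were lower and 3477 higher past the threshold.

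Transcription factors that the study places in the core circuit of these fibroblasts showed no common direction. Of 19 tested, 8 were lower and 6 higher in MMTV-CAF, beside 29.1% and 28.7% of all genes. That list was chosen by the study from its own samples. Klf4, a zinc finger factor, fell from 148, 156 and 149 to 57.7, 56.2 and 54.6 CPM in MMTV-CAF and rose from 112, 117 and 138 to 159, 163 and 171 CPM in MEF (difference -1.85 ± 0.10, adjusted p = 3.33e-08). Sox4 behaved likewise (-2.03 ± 0.12), as did Tead1, a partner of YAP (-0.87 ± 0.07). Fosl2, a subunit of AP-1, rose in MMTV-CAF and fell in MEF (0.88 ± 0.08). Hes1, a target of Notch signalling, fell in both and further in MMTV-CAF (-2.32 ± 0.10). Nfix, a factor of the nuclear factor I family, had effects of -1.06 ± 0.19 in MMTV-CAF and 0.32 ± 0.19 in MEF (difference -1.39 ± 0.27, adjusted p = 0.00114).

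Positional and mesenchymal factors were also mixed, with 15 of 43 lower and 15 higher in MMTV-CAF, beside 29.1% and 28.7% of all genes. Twist1, an inducer of mesenchymal state, rose in MMTV-CAF and fell in MEF (difference 1.10 ± 0.10), whereas Snai2 fell in MMTV-CAF and rose in MEF (-0.67 ± 0.08). Sox9, a regulator of cartilage, fell from 67.1, 69.5 and 70.0 to 24.4, 23.2 and 22.6 CPM in MMTV-CAF and rose from 16.3, 17.5 and 18.8 to 33.7, 33.8 and 34.7 CPM in MEF (difference -2.51 ± 0.08, adjusted p = 5.15e-10). Among 33 Hox genes, 11 had a higher and 3 a lower effect in MMTV-CAF, beside 28.7% and 29.1% of all genes. Hoxa7 differed by 1.70 ± 0.09 and Hoxc9 by -1.14 ± 0.15. A difference was called for 42.4% of the Hox genes, beside 57.8% of all genes, and 19 of the 33 had none.

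Among AP-1 factors, which answer to growth and stress signals, Jun rose in both types. It went from 125, 126 and 119.7 to 238, 227 and 228 CPM in MMTV-CAF and from 131, 133 and 136 to 225, 235 and 229 CPM in MEF, with a 95% interval of the difference of -0.01 to 0.24. That small difference was not called, but it was with DESeq2 (0.14, adjusted p = 0.00974), RLE scaling (0.14, adjusted p = 0.0474) and library totals (0.25, adjusted p = 0.0126). Fosl1 rose in both and more in MEF (-0.58 ± 0.08). Of 12 tested, 4 rose in both types, beside 10.4% of all genes. Of 14 target genes of YAP and TEAD, 8 had a lower and 4 a higher effect in MMTV-CAF and 6 fell in both, among them F3, the tissue factor that starts coagulation, which differed by -1.27 ± 0.06. Over all genes the shares were 29.1%, 28.7% and 14.0%.

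Cholesterol synthesis genes fell in both types in 87.5% of cases, the largest share among the 26 lists. Of 24 tested genes, 21 fell in both (14.0% of all genes) and none rose in either. An interval of the difference within 0.5 of zero was found for 9 of the 21, beside 647 of all 2033 genes lower in both. The medians were -0.62 in MMTV-CAF and -0.66 in MEF, and no member passed the test of a difference over 2-fold.

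Cell cycle genes mostly had the higher effect in MMTV-CAF. Of 32 tested, 19 had a higher and 2 a lower effect in MMTV-CAF, and 12 rose in both types. Over all genes the shares were 28.7%, 29.1% and 10.4%. The median difference was 0.40, with 2 members past the test against 2-fold. Top2a, a topoisomerase of dividing cells, rose from 240.3, 231 and 243 to 757, 768 and 763 CPM in MMTV-CAF and from 439, 419.7 and 419 to 442, 472 and 495 CPM in MEF (difference 1.54 ± 0.07, adjusted p = 6.13e-09). Mki67, which encodes the proliferation marker Ki-67, rose by 0.31 in both types, with a 95% interval of the difference of -0.29 to 0.30. Cyclin D1 (Ccnd1) rose by 0.37 in MEF and had an effect of -0.07 ± 0.05 in MMTV-CAF (difference -0.44 ± 0.07, adjusted p = 0.00019).

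Genes of glycolysis and the response to hypoxia also had mostly higher effects in MMTV-CAF, 13 of 23 beside 2 lower, with a median difference of 0.39. Of all genes, 28.7% had the higher and 29.1% the lower effect. The oxygen-sensing hydroxylase gene Egln3 was the extreme, at 0.383, 0.350 and 0.396 against 27.6, 28.6 and 28.4 CPM in MMTV-CAF and 2.19, 2.78 and 2.57 against 2.92, 3.82 and 3.96 CPM in MEF (difference 5.72 ± 0.18, adjusted p = 5.96e-10). The glucose transporter gene Slc2a1 differed by 0.38 ± 0.13 (adjusted p = 0.0234), a call lost without WT MEF 1 (0.29) or WT MMTV-CAF 3 (0.36). Lactate dehydrogenase A (Ldha) differed by 0.39 ± 0.19, which was not called (95% interval -0.03 to 0.80), although it was called without WT MEF 1 (0.55, adjusted p = 0.00265) and with library totals (0.52, adjusted p = 0.0313). Endoplasmic reticulum chaperone and stress genes split evenly, 8 of 21 lower and 8 higher, beside 29.1% and 28.7% of all genes. The chaperone gene Hspa5 rose by 0.75 in MMTV-CAF with an effect of -0.02 ± 0.04 in MEF, whereas Trib3 and Chac1, induced by amino acid shortage, fell in MMTV-CAF and rose in MEF, with differences of -2.21 ± 0.09 and -1.95 ± 0.13.

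Adipogenic regulators gave another opposite pair. Pparg, the master regulator of fat cells, fell from 12.3, 12.6 and 13.3 to 1.73, 1.43 and 1.32 CPM in MMTV-CAF and rose from 2.72, 2.27 and 3.11 to 3.75, 4.0 and 3.64 CPM in MEF (difference -3.57 ± 0.18, adjusted p = 2.2e-08). Its partner Cebpa differed by -2.39 ± 0.19, in the same sense. Over the 13 tested members, 4 were lower and 4 higher in MMTV-CAF, near the 29.1% and 28.7% of all genes. The keratin gene Krt19, counted above among epithelial markers, fell by 8.18 in MMTV-CAF and rose by 0.85 in MEF (difference -9.03 ± 0.14, adjusted p = 3.15e-12), and the part of epithelial cells in any of these results was not tested beyond the marker levels given.

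Cytosolic ribosomal protein genes seldom had the higher effect in MMTV-CAF. Of 83 tested, 32 had a lower and 4 a higher effect in MMTV-CAF, against a background of 29.1% and 28.7%, and none passed the test of a difference over 2-fold. The median effects were 0.07 in MMTV-CAF and 0.34 in MEF. In both types 22 members rose (10.4% of all genes), while 10 fell in MMTV-CAF and rose in MEF (6.6% of all genes). Rps2, of the small subunit, fell from 527, 557 and 555 to 422, 427 and 409 CPM in MMTV-CAF and rose from 1322, 1466 and 2046 to 2611, 2903 and 2793 CPM in MEF (difference -1.16 ± 0.18, adjusted p = 0.000188). These genes have many processed copies in the genome, so reads may have been split among them.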

How the data were processed

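RNA was measured in cultured mouse fibroblasts with TruSeq RNA v2 libraries, a kit that does not keep strand. The authors deposited raw counts per gene, in 1 table for MEF and another for MMTV-CAF. The submitters' processing notes name Trimmomatic, STAR, HTSeq and the mm10 genome, without versions; the strand setting of the counting is not given in the sources used here. The study's methods name a batch correction with ComBat-seq at the end of a section on mouse and human libraries, without saying whether it covers the deposited mouse counts. Reads of the FVB/NJ cultures were aligned to the genome of another strain, C57BL/6.

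Of 24532 genes in the MEF table and 24455 in the MMTV-CAF table, 24447 were in both, and 23441 of these matched a RefSeq symbol while 1006 did not. Columns were assigned to cultures by name, with 0 columns left without one. Groups follow the labels. Genes were filtered with filterByExpr over the 4 groups and scaled by TMM over all 12 cultures. Total counts ran from 72754401 to 134790440. The median standard error of the difference was 0.141.

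The difference of effects was tested with edgeR 4.0.16 (glmQLFit and glmQLFTest) in R 4.3.3, with limma 3.58.1, and differences over 2-fold with glmTreat against a log2 size of 1. Adjusted p-values are Benjamini-Hochberg values over all tested genes with a threshold of 0.05. Standard errors came from the F statistic and 95% intervals from the t distribution. A gene was lower or higher in both types if both own effects passed the threshold in that direction, and opposite if both passed with opposite sign and the difference did too. Tables and figures were made with Python 3.11.15, numpy 2.4.6, pandas 2.3.3 and matplotlib 3.10.9.

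Genes were named by rule: Prrx1 and Prrx2, chosen anchors of each list, the members of each list with the most extreme called differences among genes expressed in both types (a mean of at least 1 CPM in WT or sgPrrx1), up to 8 genes of each class that changed by over 2-fold in both types with a mean of at least 10 counts in each group, and marker genes. Col5a3 was instead chosen after its values were seen. The comparison, the 26 gene lists and the tests were chosen with earlier results of these data known. A list is described by its counts and median, not tested as a set, and a member that passed the filter only through the group where it is high had to differ. No fold is given against a group with 3 counts or fewer.

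On simulated counts for 14376 genes of this comparison, 96% of 200 genes changed by a log2 of 1.5 in 1 type were called different, 45% were called over 2-fold, 94.5% of genes changed alike were found shared, and 4.95% of calls were unchanged genes. The simulated counts had the same dispersion for every gene and in both types. These shares therefore do not cover the unequal spread of the real cultures. Alternatives were DESeq2 1.42.0, limma voom, other scalings and filters, equal or reduced depth, robust dispersions, all 21 cultures in 1 fit, a replicate block, and each culture left out in turn. Separate fits per type and leaving out both MEF cultures numbered 3 were added after seeing the data. Promoter sequences came from RefSeq (GRCm38.p6) and span 250 bases before to 50 after a start. Some named genes are not reported here.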

Additional observations from a re-analysis of the deposited data

Results flagged for a closer look

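The results below are the ones in which the effect of editing differed between MMTV-CAF and MEF by a test of the difference itself in edgeR. The difference was called for 8417 genes and exceeded 2-fold for 2102. In 1159 genes the effect was up in MMTV-CAF and down in MEF, and in 960 the reverse. Of the genes that changed by over 2-fold in both types in opposite directions, those with the lower effect in MMTV-CAF were Prl2c2 (difference -4.88), Tubb3 (-4.13), Grb14 (-2.88) and Gpr137b (-2.74). Those with the largest higher effect in MMTV-CAF were Ces1g (9.91), Enpp2 (8.82), C3 (7.83), Tmem176b (7.83), Mme (7.75), Cldn1 (7.75), Tmem176a (7.61) and Adgrb2 (7.36). Outlying samples were not searched gene by gene in groups of 3 cultures. Cell type, strain, count table and the X and Y transcripts coincide in all of these values and cannot be told apart.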

How the results depend on the processing

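The number of called differences stayed between 8217 and 9184 over the 14 alternatives that kept at least 2 cultures in each group and left out no single culture, and between 7768 and 8872 when a culture was left out. Without single cultures, 1937 to 2236 genes differed by over 2-fold, 1737 to 2154 fell and 1317 to 1724 rose in both types, and 821 to 1149 and 985 to 1326 moved in opposite directions with MMTV-CAF lower and higher. With library totals alone, genes lower in MMTV-CAF and higher in MEF numbered 624, and the Prrx1 difference was -0.32. It was -0.34 without both MEF cultures numbered 3, and ran from -0.59 to -0.33 without single cultures. Near-zero differences that were never called changed sign: Mki67 to -0.0094 in the fit of all 21 cultures, and Clec2d to -0.12 without both MEF cultures numbered 3. Without single cultures Clec2d ran from -0.16 to 0.18, Mki67 from -0.085 to 0.13 and S100a4 from -0.031 to 0.15. With separate fits per type, the median standard error of an effect was 0.0402 in MMTV-CAF and 0.119 in MEF, beside 0.0975 and 0.0982 in the joint fit, so standard errors printed for a single type assume a common spread. Those fits shared 1551 of the 2033 genes lower and 1087 of the 1507 higher in both types, and 639 of the 960 and 827 of the 1159 opposite genes. The causes were not tested. Of the 114 genes named for these checks, 96 kept direction and side of the threshold in all 26 alternatives. Median differences of small leucine-rich proteoglycans and of basement membrane genes moved most often, each in 7 alternatives.

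The replicate numbers did not pair the cultures in a consistent way. Same-numbered WT and sgPrrx1 cultures deviated together with correlations of 0.0651, -0.112 and 0.167 in MMTV-CAF and 0.223, -0.0766 and 0.347 in MEF. Between cultures of unlike number the correlations ran from -0.242 to 0.179 in MMTV-CAF and from -0.355 to 0.179 in MEF. The MEF cultures numbered 1 and 3 thus deviated most with their same-numbered partners, so a pairing of those is not excluded. With the numbers as a replicate block, 8844 differences were called, 2073 over 2-fold, 2192 genes fell and 1694 rose in both types, 1089 and 1307 moved in opposite directions, and the Prrx1 difference was -0.43 and stayed past the threshold. The block brought the small differences of Trp53inp2 (0.20), Has2 (-0.24), Igfbp7 (-0.15) and Thbs1 (0.23) past it too, with adjusted p of 0.0297, 0.0442, 0.0421 and 0.0173.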
